A study of Rattus norvegicus with 6 samples.

Results

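MHC class I molecules and the machinery that loads them with peptide were followed in the whole adrenal gland of 2 inbred rat strains, the spontaneously hypertensive rat (SHR) and the normotensive Wistar-Kyoto rat (WKY). The set was defined by 10 members: the class I heavy chain gene RT1-CE12, B2m, Tap1, Tap2, Tapbp, Psmb8, Psmb9, Psmb10 and the probe sets M31038_at and AF074608mRNA_f_at. Every probe set annotated to a member, alone or with other genes, was taken, which gave 11 of the 8740 probe sets on the array that are no controls. The array annotation pairs Tapbp and Psmb10 with 0 probe sets, so 8 members were measured. It lists neither M31038_at nor AF074608mRNA_f_at, and both are therefore called by their probe set names and given no gene. The members were chosen with the difference between the strains already known, so their strain differences are given as a description, with no p-value, and where calls of the fit over all probe sets are counted among them nothing is read from the count.

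Total RNA had been measured on 6 oligonucleotide arrays with 1 colour (Affymetrix RG-U34A), of which 3 carried SHR and 3 carried WKY samples. The labels name no treatment for either strain, and no source used here gives the age, the sex or the number of animals behind a sample. Whether the 3 samples of each strain were separate animals is not stated, and a p-value here reflects only the variation among these samples, which may be technical.

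Class I molecules stand on nearly all nucleated cells and show fragments of the cell's own proteins to cytotoxic T cells and natural killer cells. A heavy chain, encoded in the rat by the RT1 genes of the major histocompatibility complex, pairs with beta-2-microglobulin, the product of B2m. Peptides are cut in the cytosol by the proteasome, in which the subunits encoded by Psmb8, Psmb9 and Psmb10 replace constitutive ones to form the immunoproteasome. The transporter made of the Tap1 and Tap2 products carries the peptides into the endoplasmic reticulum, where tapasin, encoded by Tapbp, joins it to the empty class I molecule. Interferons raise the whole group through IRF1 and related factors, and NF-kappaB acts on several of its promoters. Class I heavy chains are among the most polymorphic proteins known, and rat strains also differ in how many RT1 class I genes they carry. An array signal depends on both the amount of a transcript and its match to the probes, and these cannot be told apart in the deposited values.

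Interferon acts on these genes through short motifs in their promoters, so stretches of B2m, Tap1 and Tap2 that hold such motifs are shown. In the RefSeq promoter windows of the GRCr8 assembly (a Brown Norway genome, neither SHR nor WKY), all 8 named genes were found, and the 250 bases before each start were searched on both strands. The interferon-stimulated response element, searched by its core GAAANNGAA, was present in 5 of the 8, namely B2m, Tap1, Tap2, Tapbp and Psmb10, and in 8.12% of all 33469 windows. The NF-kappaB site, searched as GGGACTTTC, was present in 2 of the 8, B2m and Tap1, and in 0.272% of all windows. The gamma-activated sequence, searched as TTCNNNGAA, was present in 1, Psmb8, against 7.67% of all windows. No match to the 3 motifs lay in these windows of RT1-CE12 or Psmb9, which says only that those letters are not there. A match is a description and not a shown site of binding. Matches of the response element overlap one another in Tapbp and Psmb10, and no match of different motifs overlapped. The stretches below run 5′ to 3′ on the strand of the gene, all before its first annotated base, with the response element and the NF-kappaB site in capitals. They lie at chr3:129549164-129549229 on the plus strand for B2m, chr20:4668569-4668688 on the minus strand for Tap1 and chr20:4652307-4652376 on the minus strand for Tap2.
B2m: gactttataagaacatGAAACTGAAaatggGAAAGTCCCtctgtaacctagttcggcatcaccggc
Tap1: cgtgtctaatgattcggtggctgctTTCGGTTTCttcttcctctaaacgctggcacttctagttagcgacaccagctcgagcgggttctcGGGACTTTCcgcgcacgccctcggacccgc
Tap2: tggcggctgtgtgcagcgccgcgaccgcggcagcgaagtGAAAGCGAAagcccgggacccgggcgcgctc
In B2m the response element and the NF-kappaB site begin 150 and 136 bases before the start, both within a stretch of 66 bases. In Tap1 they begin 120 and 55 bases before it, and in Tap2 the response element begins 41 bases before it. The values that follow show that B2m and both Tap1 probe sets read lower in SHR, while Tap2 overlapped between strains. Psmb8, whose match to the gamma-activated sequence is not printed, also overlapped. A link between motifs and strain differences was not tested.

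Median intensities ran from 798.3 to 899.5 over the scaled arrays. The ratio of 3′ to 5′ hexokinase signal, a control for RNA degradation, was 4.21 for SHR replicate 2 and 1.96 to 2.54 for the other arrays. The same ratio for GAPDH did not set that array apart, at 0.947 against 0.901 to 1.14 for the others. By a gap in hybridization times of day the arrays were split into 2 runs, with SHR replicates 2 and 3 alone in the second. SHR replicate 1 stood beside WKY in the first. Adrenal identity was checked on listed markers, with no other tissue on the arrays for comparison. Tested cortex genes (9) summed to 317761 to 448479 intensity units in SHR and 339222 to 485955 in WKY. Tested medulla genes (10) summed to 43125 to 54283 in SHR and 57032 to 65536 in WKY, without overlap. By log2 difference (SHR minus WKY), 8 of these genes were negative and 2 positive. Pnmt was at -0.57 and Dbh at -1.29, while Th (-0.02) and Chgb (-0.08) were near 0. Ddc (0.14) and Slc18a2 (0.91) were the positive ones, so the sum does not describe every medulla gene.

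Strains were compared by limma on log2(intensity + 181.5), as SHR minus WKY, over the 5244 probe sets whose mean lay above the 40th percentile, with Benjamini-Hochberg adjustment and a threshold of 0.05. On this scale a fold change understates the change of dim probe sets. Of the 11 probe sets, 10 passed the intensity filter. Among these 10, 2 were called, M31038_at and AF074608mRNA_f_at, both higher in SHR, where 1.95% of all tested probe sets were called and 1.07% were called higher. The arrays of the strains did not overlap in 6 of the 10, 3 with SHR above and 3 with SHR below, against 20.7% of all tested probe sets without overlap, 10.2% with SHR above and 10.5% with SHR below. Nothing is read from these counts, since the choice of members used the same contrast. The 10 had 5 positive and 5 negative differences and a median log2 difference of -0.014, beside -0.0069 over all tested probe sets.

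**Figure D1:**
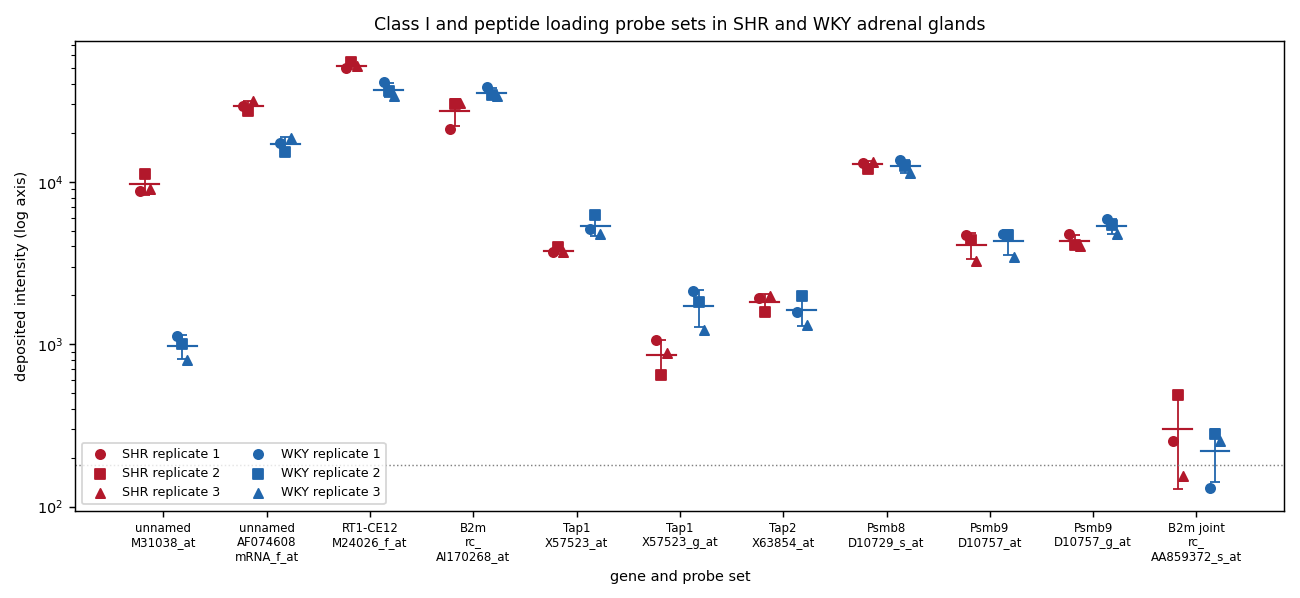
Deposited intensity (log axis) of the 11 probe sets in each array, with SHR in red to the left of WKY in blue; bars show the mean and SD of 3 arrays, and the dotted line marks the pseudocount of 181.5. M31038_at stands apart by about an order of magnitude, at 8796 to 11232 in SHR and 804 to 1122 in WKY, while Psmb8, Psmb9 and Tap2 overlap between strains.

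M31038_at gave the widest difference of the set. Its intensity was 8796, 11232 and 9046 in SHR replicates 1 to 3, against 1122, 1003 and 804 in WKY replicates 1 to 3. Every SHR array lay far above every WKY array, and the lowest SHR value belonged to the array placed in the same run as WKY. Means were 9691 ± 1340 in SHR and 976 ± 161 in WKY (SD, n = 3 each), a log2 difference of 3.09 ± 0.18 (SE), or 8.53-fold on that scale. Only 2 of the 5244 tested probe sets had a larger positive difference. Nothing is read from this rank, since the choice of members used the same contrast. With the hybridization run as a block, which sets SHR replicate 1 alone against WKY, the difference was 2.96. It was 2.98 without SHR replicate 2, the array with the high hexokinase ratio, and up to 3.18 with another array left out.

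AF074608mRNA_f_at, whose suffix marks a probe set that shares probes within a sequence family, differed far less. It read 29315, 27264 and 31507 in SHR replicates 1 to 3, against 17435, 15226 and 18692 in WKY. The strains were clear of each other, with the lowest SHR array well above the highest WKY array. The means, 29362 ± 2122 in SHR and 17118 ± 1754 in WKY, gave a log2 difference of 0.77 ± 0.12 (SE), or 1.71-fold. With the run as a block it was also 0.77.

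RT1-CE12, a class I heavy chain gene of the RT1-C/E region, was read by M24026_f_at, also a family probe set. Its intensities were 49962, 54614 and 51337 in SHR, against 40900, 36085 and 33666 in WKY. All SHR arrays lay above all WKY arrays. The log2 difference was 0.50 ± 0.11 (SE), or 1.41-fold, and 0.44 with the run as a block. Probes of this family can bind transcripts of several RT1 class I genes, so the value is uncertain as a reading of RT1-CE12 alone.

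B2m, the light chain shared by all classical class I molecules and encoded on chromosome 3 outside the major histocompatibility complex, went the other way. Its own probe set (rc_AI170268_at) read 21111, 30024 and 30365 in SHR, against 38210, 34024 and 33917 in WKY. All SHR arrays lay below all WKY arrays, but SHR replicate 1 stood apart from the other SHR arrays, which lay close under the lowest WKY array. The means were 27167 ± 5247 in SHR and 35384 ± 2448 in WKY, a log2 difference of -0.40 ± 0.16 (SE). That difference was -0.23 without SHR replicate 1 and -0.74 with the run as a block, so this array decides its size. A second probe set (rc_AA859372_s_at) names B2m together with 5 other genes, among them ribosomal RNA, failed the intensity filter at 154 to 487 in SHR and 130 to 279 in WKY, and is not read as B2m here.

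The transporter subunits did not share a pattern. Tap1 had a pair of probe sets, both lower in SHR. X57523_at read 3682, 3957 and 3674 in SHR, against 5115, 6226 and 4767 in WKY, and the SHR arrays all lay below the WKY arrays. The log2 difference was -0.48 ± 0.15 (SE), and -0.51 with the run as a block. X57523_g_at, on the same transcript, read 1058, 648 and 882 in SHR, against 2121, 1809 and 1231 in WKY, again without overlap, at -0.86 ± 0.26. With the run as a block the second was -0.59. Tap2, the partner subunit, read 1920, 1589 and 1969 in SHR (X63854_at), against 1590, 1970 and 1320 in WKY. The strains overlapped throughout, with a difference of 0.16 ± 0.20.

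The immunoproteasome subunits overlapped between strains. Psmb8, which replaces Psmb5 in the immunoproteasome, read 13006, 12052 and 13300 in SHR (D10729_s_at), against 13672, 12552 and 11259 in WKY. The arrays interleaved, the difference was 0.04 ± 0.12 (SE), and the SD within strains was 0.11 on the log2 scale. Psmb9, which replaces Psmb6, had a pair of probe sets. D10757_at read 4694, 4382 and 3253 in SHR and 4756, 4731 and 3423 in WKY, at -0.06 ± 0.20, with replicate 3 the lowest in either strain. D10757_g_at read 4803, 4065 and 4036 in SHR and 5909, 5395 and 4772 in WKY, at -0.30 ± 0.15, with the highest SHR array just above the lowest WKY array. That difference was -0.15 with the run and -0.46 with the module as a block.

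Heavy chain probe sets beyond the members varied in direction among themselves. The annotation names RT1 class I genes in 15 further probe sets, a group taken after its values were seen, so its p-values only describe. Of the 15 probe sets, 10 passed the intensity filter and 0 were called by limma at an adjusted p under 0.05, against 1.95% of all tested probe sets. An unadjusted p under 0.05 was found for 4. The share of all tested probe sets at that unadjusted threshold is not given. Nothing is therefore read from such counts, here or in the gene lists below. The 10 had 6 positive and 4 negative differences, with a median of 0.17. The largest was that of M64795_i_at, shared by RT1-A, RT1-CE16 and RT1-A1, at 0.63 ± 0.23 (SE; limma adjusted p = 0.264). It read 2756, 1617 and 1766 in SHR and 1288, 1080 and 1326 in WKY, and with the run as a block, which leaves SHR replicate 1 against WKY, the difference was 1.06. M31018_f_at, which names RT1-A, the main classical class I locus of the rat, read 62782, 60721 and 67122 in SHR and 52849, 48982 and 53103 in WKY, at 0.30 ± 0.09 (0.183). AF074609mRNA_f_at, shared by RT1-A, RT1-CE16 and RT1-A1, read 17753, 14877 and 18967 in SHR and 20936, 19470 and 18359 in WKY. It stood at -0.19 ± 0.13 (0.565), a sign opposite to that of AF074608mRNA_f_at. RT1-S3, a non-classical class I gene, was lower in SHR in both tested probe sets, at -0.21 (0.622) and -0.49 (0.327).

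RT1-A3, another class I gene of the RT1-A region, fell below the intensity filter. AJ005023_at read 1373, 1402 and 1032 in SHR, against 79.4, 299 and 163 in WKY. The SHR arrays all lay above the WKY arrays, and the WKY mean of 181 ± 111 did not exceed the pseudocount. The log2 difference of 2.04 rests on the pseudocount for that reason, and no p is given, since this probe set was singled out after its values were seen.

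**Figure D2:**
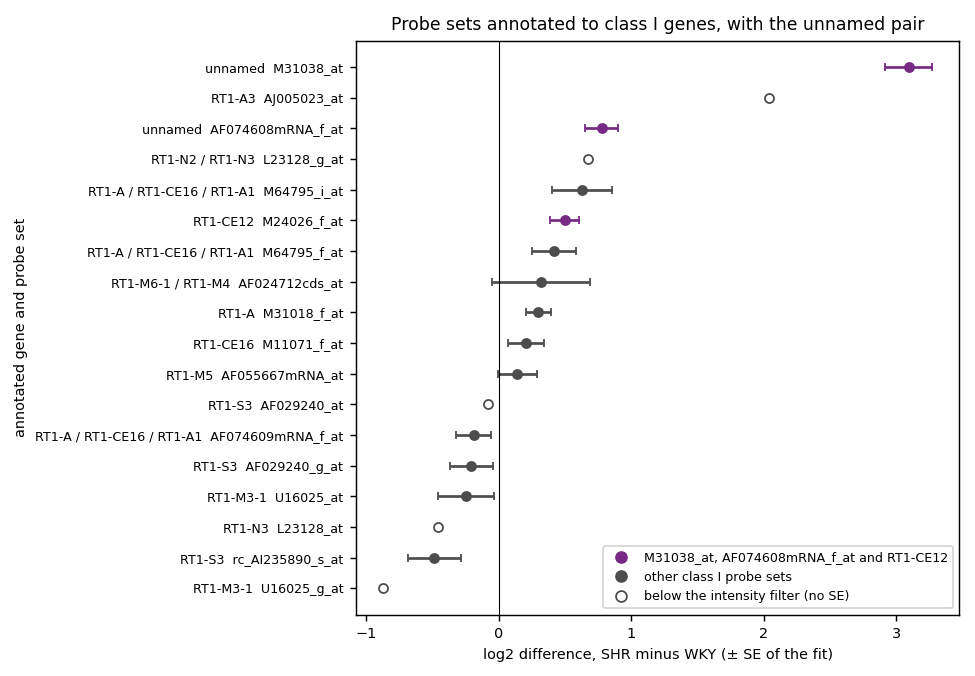
Log2 difference (SHR minus WKY) of the probe sets annotated to class I genes and of M31038_at and AF074608mRNA_f_at; bars are the SE of the limma fit, and open circles are probe sets below the intensity filter. The points run from -0.87 to 3.09, with M31038_at and RT1-A3 (2.04) set apart from the others.

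Genes that work with the members but lie outside the set had a median difference near 0. Of 14 tested partners of peptide generation and loading, 0 passed limma's test over all probe sets in either direction, against 1.95% of all tested probe sets. There were 3 with an unadjusted p under 0.05, and the median was -0.03. The endoplasmic reticulum chaperones of the loading complex were at 0.48 (Canx, calnexin), 0.14 (Calr, calreticulin) and -0.27 (Pdia3, ERp57). Other Canx probe sets ran from 0.08 to 0.33. The proteasome activator genes Psme1 and Psme2, which interferon gamma also induces, were at -0.05 and -0.12, and Psmb5, the constitutive counterpart of Psmb8, was at -0.01. The 4 of smallest p were Lnpep, an aminopeptidase that trims peptides in endosomes, at 0.69 ± 0.23 (SE; limma adjusted p = 0.224), the cytosolic peptidases Thop1 at 0.50 (0.239) and Tpp2 at -0.47 (0.291), and Sec61b, a subunit of the translocon, at -0.24 (0.369). Other Tpp2 probe sets differed in sign, at 0.29 (0.697), -0.24 (0.749) and -0.55 (0.160). The summed level of the 14 partners ran from 186810 to 191160 in SHR and from 185562 to 200657 in WKY, with overlap.

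Interferon signalling and response genes had a median of 0.002. Of 21 tested, 0 were called by limma, against the same 1.95%, and 5 had an unadjusted p under 0.05. With lists of this size, 0 calls is near that share, for these genes and for the partners alike. Irf1, a factor known to bind the response element, read 1830, 1263 and 1105 in SHR (M34253_g_at), against 2984, 2974 and 2618 in WKY. The SHR arrays all lay below the WKY arrays, at -0.97 ± 0.21 (SE; limma adjusted p = 0.0659). With the run as a block it was -0.59. Over the alternatives its adjusted p ran from 0.0486, without SHR replicate 1, to 0.598, in the first run alone. Its other probe set was at -0.72 (0.459). Irf7, which drives type I interferon genes, had the opposite sign, at 1097, 2102 and 2190 in SHR and 418, 888 and 413 in WKY. That difference was 1.395 ± 0.34 (0.0991), and 0.82 with the run as a block. Its other probe set was at 0.37 (0.793), and at -0.31 with the module as a block. Nfkbia, the inhibitor that holds NF-kappaB in the cytosol, was at -0.80 (0.108), and Nfkb1, a subunit of NF-kappaB, was at -0.57 (0.193).

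In the RefSeq order on chromosome 20, Tap2, Psmb8, Tap1 and Psmb9 follow each other with 0 other genes starting between them, inside the class II region. Class II genes, whose products show peptides from outside the cell, flank them on both sides. Taking the brightest probe set of each gene, 3 of 9 tested class II genes were called lower in SHR and 0 higher, where 0.877% of all tested probe sets were called lower. They were RT1-Ba at -1.31 (limma adjusted p = 0.0297), RT1-Db1 at -1.22 (0.0403) and, on chromosome 18, the invariant chain gene Cd74 at -1.76 (0.0429). With the run as a block these were -1.24, -1.14 and -2.04 and none was called, at adjusted p of 0.287, 0.343 and 0.232. On the Tap2 side, the nearest class II gene with a tested probe set was RT1-Bb. Its X56596_at read 1206, 672 and 1011 in SHR, against 4374, 5442 and 3533 in WKY, a log2 difference of -2.03 (0.00548, and 0.135 with the run as a block). Another RT1-Bb probe set, M36151cds_s_at, was at -0.26 (0.697). RT1-Ba also had probe sets that were not called, M22366_at at 0.10 (0.866) and X07551cds_s_at at -0.76 (0.258). RT1-Da, farther out on that side, was not called, with M15562_g_at at -1.10 (0.0744) and M15562_at at -0.35 (0.493). Beyond Psmb9 came RT1-DMb at -0.97 (0.395), RT1-DMa at -0.23 (0.653), RT1-DOa at 0.24 (0.614) and RT1-Ha at 0.39 (0.493). The 4 genes between read from -0.86 to 0.16.

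**Figure D3:**
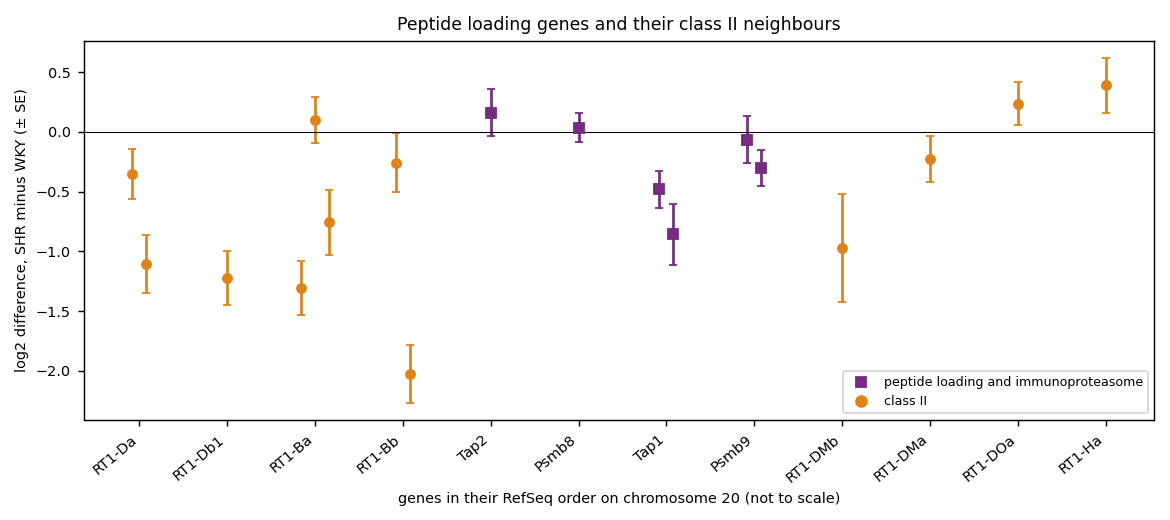
Log2 difference (SHR minus WKY, ± SE of the limma fit) of each tested probe set of the peptide loading genes (squares) and class II genes (circles) in their RefSeq order on chromosome 20, evenly spaced. RT1-Bb reaches -2.03 beside Tap2 at 0.16 and Psmb8 at 0.04, and the lower squares are those of Tap1.

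Cells that carry class I and class II molecules in quantity were followed by their markers. In whole glands, fewer cells of a type and less RNA per cell cannot be told apart. The 9 class II genes summed to 27290 to 28794 in SHR and 39628 to 66229 in WKY, without overlap, beside the lower Tap1, B2m and Irf1 readings, and their part in those readings was not tested. Of 13 tested leukocyte genes 0 passed limma's test, a count near the 1.95% of all tested probe sets, and 2 had an unadjusted p under 0.05. Differences were negative in 10 and positive in 3, with a median of -0.13 and summed levels of 20948 to 24937 in SHR and 23120 to 32588 in WKY. The 4 of smallest p were C1qb, a complement gene of macrophages, at -1.02 ± 0.28 (SE; limma adjusted p = 0.137), the leukocyte tetraspanin Cd37 at -0.84 (0.331), the T cell gene Cd5 at -0.68 (0.406) and the B cell gene Cd79b at 0.98 (0.412). Ptprc, which encodes the common leukocyte antigen CD45, was at 0.05 ± 0.57 (SE). It read 515, 1049 and 895 in SHR and 1434, 1273 and 172 in WKY, a spread too wide to show a difference or its absence. Of 5 tested endothelial genes 0 passed, 0 had an unadjusted p under 0.05, and the median was -0.19. Among 13 fibroblast and matrix genes 4 were called lower, where 0.877% of all tested probe sets were, with Col3a1 at -1.78 (0.0130), Col1a1 at -1.39 (0.0354), Fn1 at -0.997 (0.0481) and Col1a2 at -0.98 (0.0302). Dimmer probe sets of Col3a1, at -0.85 (0.258), and of Fn1, at -0.46 (0.659) and -0.58 (0.662), were not called. For Col1a1 they were at -0.60 (0.137), -0.88 (0.0429) and -1.14 (0.0350). The fat list had 1 of 6 called lower, Cfd at -1.999 (0.0324), and the medulla list 1 of 10, Dbh at -1.29 (0.00548). With the run as a block none of these 6 was called, at adjusted p of 0.126 (Dbh) to 0.391 (Fn1), and Col1a1 was at -0.86.

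**Figure D4:**
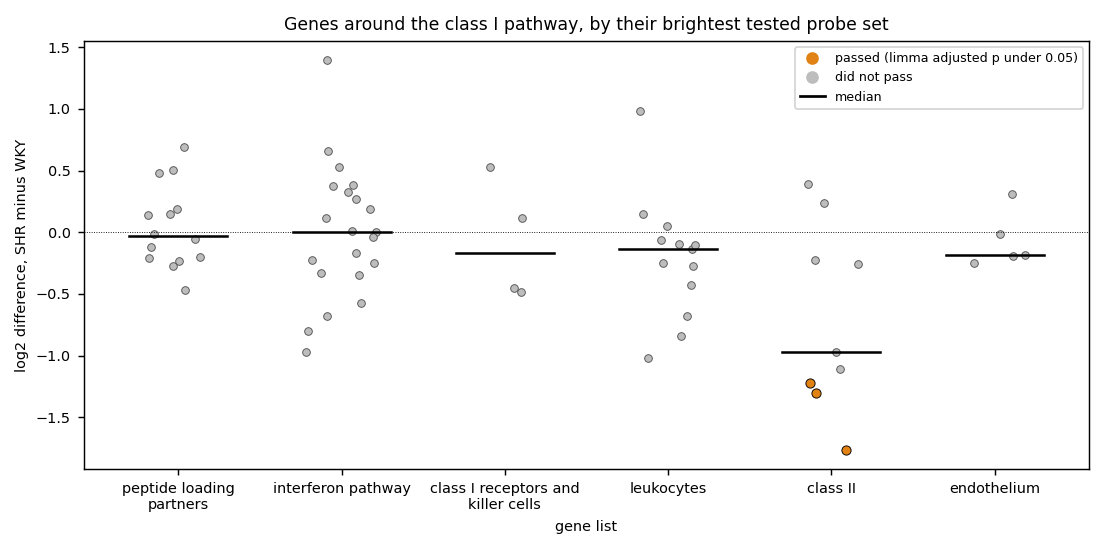
Log2 difference (SHR minus WKY) of each tested gene in 6 lists, by its brightest tested probe set; orange points passed limma's test over all probe sets and lines are medians. The 3 orange points are class II genes, and the medians of the other lists lie between -0.19 and 0.002.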

How the data were processed

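The deposited values were linear intensities, 1 for each probe set on each array. No source used here gives the authors' expression algorithm or scaling, and the 2% trimmed mean was 2504 on all 6 arrays. The instrument's settings files, also deposited, showed 1 chip lot, 1 fluidics station and 4 modules. The 2 runs were inferred here from a gap of over 60 minutes between the hybridization times of day in those files. The date was not used, so the split is uncertain as a record of separate sessions. Strain and replicate number came from the sample titles. Of 8799 probe sets, 59 controls were left out. Deposited intensities were transformed to log2(intensity + 181.5), where 181.5 is the 20th percentile of the positive values. Names came from GEO's platform annotation, with symbols updated through RefSeq (GRCr8); of 5244 tested, 4312 had 1 symbol, 240 several and 692 none. A gene in a list was represented by its brightest tested probe set (3144 genes).

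The fit was limma 3.58.1 (lmFit and trended eBayes, R 4.3.3) over all 6 arrays with no covariate. It was also tried on simulated data that held no run or module effect, which says nothing of such effects here. The number of arrays limits precision. The members and lists were chosen with earlier results of these data known. Named were all member probe sets and, of each list, the genes that passed and up to 4 more of smallest p; genes outside this rule, among them some chaperones, Psme1, Psme2, Psmb5, Ptprc, RT1-A and RT1-A3, were chosen after their values were seen. Alternatives were another scaling, pseudocount, filter or variance model, the replicate number, run or module as a block, the first run alone, each array left out, and a gene's mean over its probe sets.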

Additional observations from a re-analysis of the deposited data

How the results depend on the processing

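Either rescaling (quantile, median), either other pseudocount, either other filter and a robust fit left the count of called probe sets within 1.5 times of 102 and that of called member probe sets at 2. The count of all called probe sets was 60 by eBayes without trend, 53 with the replicate block, 20 with the run and 46 with the module as a block, 1 within the first run, and 38 to 59 with each array left out. The count of called member probe sets, a description, was 1 without trend and with a block for run or for module, 0 within the first run and 1 to 2 with each array left out. The 1 left was M31038_at, called in 17 of 18 alternatives (2.61 to 3.31), where AF074608mRNA_f_at was called in 9 (0.69 to 0.84). AF074608mRNA_f_at kept its call without WKY replicate 3 and lost it without each of the other 5 arrays. Marker genes called numbered 9, against 4 with no filter, 2 without trend, 4 with the replicate block, 0 with the run and 4 with the module as a block, 0 within the first run and 2 to 4 with each array left out. Interferon genes called numbered 0 to 1 there. Fits with a block or fewer arrays have fewer residual degrees of freedom by construction; other causes were not tested. Whether same-numbered arrays of the strains share more than a number is not stated. Their deviations from the strain means correlated at 0.0009, 0.011 and 0.071, which cannot exclude a pairing. The replicate block is not read as a pairing here. Of the other member probe sets, RT1-CE12, B2m, both of Tap1 and D10757_g_at kept their sign in every alternative that gave a value, and Tap2 (-0.0006 with the module as a block), Psmb8 and D10757_at did not.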

Other observations

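Few receptors and killer cell genes that meet class I molecules could be tested. Of 21 genes listed, 13 had a probe set of their own and 4 passed the intensity filter, of which 0 were called by limma (1.95% of all tested probe sets were) and 0 had an unadjusted p under 0.05. Cd8b, a chain of the class I co-receptor of cytotoxic T cells, averaged 1044 ± 250 in SHR and 714 ± 360 in WKY (SD, n = 3 each), a log2 difference of 0.53 ± 0.37 (SE; limma adjusted p = 0.574). Gzmb, a cytotoxic granule protease, was at 0.11 (0.849), Lck, the kinase bound to that co-receptor, at -0.48 (0.380), and the T cell receptor component Cd3g at -0.45 (0.574).

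The array-to-array pattern of the called member probe sets was set against other genes after each strain's mean was taken out, as a description over 6 arrays. M31038_at was most like Eef1g (Pearson r of 0.994), Gas5 (0.992) and Pnn (0.990), and AF074608mRNA_f_at most like Stat5a (0.993), Phrf1 (0.987) and Sstr1 (0.982). With so few arrays, 49 and 56 of the 4304 candidate probe sets exceeded 0.9.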
